A study of Homo sapiens with 2 samples.

Results

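PPP3CB, USP54 and GNG7 are 3 human genes of the minus strand in which the deposited list of ADAR1 contact sites is dense with Alu clusters. PPP3CB encodes the beta isoform of the catalytic subunit of calcineurin, the phosphatase that is switched on by calcium and calmodulin and acts on NFAT transcription factors. USP54 belongs to the ubiquitin-specific protease family, whose enzymes remove ubiquitin from proteins. GNG7 encodes a gamma subunit of heterotrimeric G proteins, which pairs with a beta subunit and couples receptors at the membrane to signalling inside the cell. A cluster is a stretch of the genome where crosslinked reads gathered, and it was counted for a gene when its midpoint lay in the gene's interval on the minus strand. The intervals on hg19 were chr10:75196100-75255800 for PPP3CB, chr10:75257200-75385800 for USP54 and chr19:2511200-2702800 for GNG7. By this rule 30 of the 23782 clusters in the list were members, 0.126% of it.

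The clusters come from CLIP-seq of ADAR1 in cells of the established human glioblastoma line U87MG, at passage 6 and with no treatment named besides ultraviolet crosslinking. Of the 2 libraries, 1 is labelled AB1 and 1 AB2 for the antibody, both with a mouse monoclonal against ADAR1, and the labels give both the same catalogue entry. A single deposited list serves both labels, with the position and strand of each and whether it is Alu or non-Alu. The list holds no read count or score, so the depth behind a cluster is unknown, AB1 and AB2 cannot be compared, and no value below has a replicate.

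ADAR1 deaminates adenosine to inosine in double-stranded RNA. Alu elements are primate retrotransposons derived from 7SL RNA that are common in introns and untranslated regions. When copies of opposite orientation lie in the same transcript they can pair into a long hairpin, the main substrate of ADAR1 in human cells. The list gives each cluster a strand, and the minus strand is the sense direction of these genes.

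The members were chosen by their number of Alu clusters on the minus strand in these same data, so number, class and spacing are given as a description, with no test. GNG7 held 15 clusters, with an exact Poisson 95% interval of 8.4 to 24.7 that covers counting error only. USP54 held 8 clusters (interval 3.45 to 15.8). PPP3CB held 7 clusters (interval 2.81 to 14.4). All 30 were of the Alu class, and non-Alu clusters numbered 0 in each gene. In the whole list 84.9% of clusters were Alu. With 30 of 30, the lower Wilson 95% limit of the members' Alu share was 88.6%, and for PPP3CB alone, with 7 of 7, it was 64.6%. Since the class was part of the choice, nothing is read from this share.

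Per length the order of the genes changed. PPP3CB, the shortest at 59.7 kb, had 11.7 clusters per 100 kb (interval 4.71 to 24.2). GNG7, the longest at 191.6 kb, had 7.83 per 100 kb (4.38 to 12.9), and USP54, at 128.6 kb, had 6.22 per 100 kb (2.69 to 12.3). The intervals overlap, and they cover counting error only. No difference in density between the 3 genes was tested. Over the stretch from the first to the last cluster of each chromosome, the list averaged 0.341 Alu clusters per 100 kb and strand, in a range that includes intergenic sequence. GNG7 alone held 3.23% of the 465 minus-strand Alu clusters of chromosome 19, while PPP3CB held 1.53% and USP54 1.74% of the 459 on chromosome 10.

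The position of the clusters along the gene differed between the genes. With each interval divided into 3 equal parts, PPP3CB had 4 clusters in the 5′ part, 1 in the middle and 2 in the 3′ part. The first of these, counting from the 5′ end, spanned 75250888 to 75251092 and was centred 4.8 kb into the interval. The next clusters followed at 9.6, 11.7 and 13.6 kb. After a stretch of 18.3 kb without a cluster came 1 at 53.6% of the way along, and a close pair at 40.3 and 41.0 kb. The last 18.6 kb of the interval held no cluster, and 4 of the 7 clusters of the calcineurin gene were thus near its 5′ end.

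**Figure D1:**
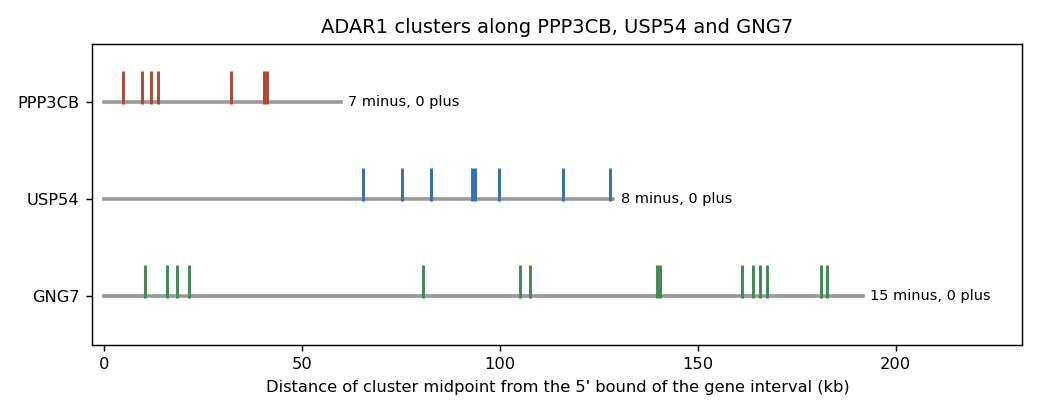
Each coloured line is 1 minus-strand cluster, placed by its midpoint in kb from the 5′ bound of the interval; grey bars are the intervals, to scale. PPP3CB has 7, USP54 8 and GNG7 15 clusters, with 0 on the plus strand in each, and the first 65.4 kb of USP54 are empty.

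USP54 had the opposite arrangement. Its 5′ part held 0 clusters, its middle 3 and its 3′ part 5. The cluster nearest the 5′ end, from 75320273 to 75320429, was centred 65.4 kb into the gene, 50.9% of the way along. The cluster nearest the 3′ end, from 75258006 to 75258222, ended the row at 99.3% of the way, only 806 bases from the bound of the interval. The first 65.4 kb of this deubiquitinase family gene were thus free of listed clusters, on both strands. Without read counts it cannot be told whether weaker contacts fell below the authors' limit there.

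GNG7 had clusters at both ends. Its 5′ part held 4, its middle 3 and its 3′ part 8. The 4 near the 5′ end were centred 10.2, 15.8, 18.4 and 21.5 kb into the gene. A stretch of 58.8 kb without a cluster followed, the widest gap in any of the 3 genes. Single or paired clusters were then found at 80.5 kb, at 105.0 and 107.6 kb, and at 139.6 and 140.4 kb. Nearest the 3′ end, 4 clusters were centred at 161.1, 163.8, 165.6 and 167.4 kb and a pair at 181.1 and 182.7 kb.

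Joining clusters less than 10 kb apart, a distance chosen after the values were seen, gave 2 groups in PPP3CB, of 4 and 3 clusters. USP54 gave 4 groups, of 3, 3, 1 and 1 clusters from the 5′ end. GNG7 gave 6 groups, of 4, 1, 2, 2, 4 and 2 clusters. The 5′ group of 4 covered 8.95 kb in PPP3CB, from 75242145 to 75251092, and 11.5 kb in GNG7, from 2681220 to 2692694.

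The gap from one cluster to the next had a median of 3.28 kb in PPP3CB (6 gaps), 9.57 kb in USP54 (7 gaps) and 2.70 kb in GNG7 (14 gaps). Over the 20152 gaps between consecutive Alu clusters of the same strand in the list the median was 55.5 kb. The gaps were uneven in GNG7, where 8 of 14 were under 3 kb and 5 exceeded 10 kb. In USP54 1 of 7 was under 3 kb and 3 exceeded 10 kb, and in PPP3CB 3 of 6 were under 3 kb and 1 exceeded 10 kb. Short gaps follow from the choice of dense genes and are no separate result.

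**Figure D2:**
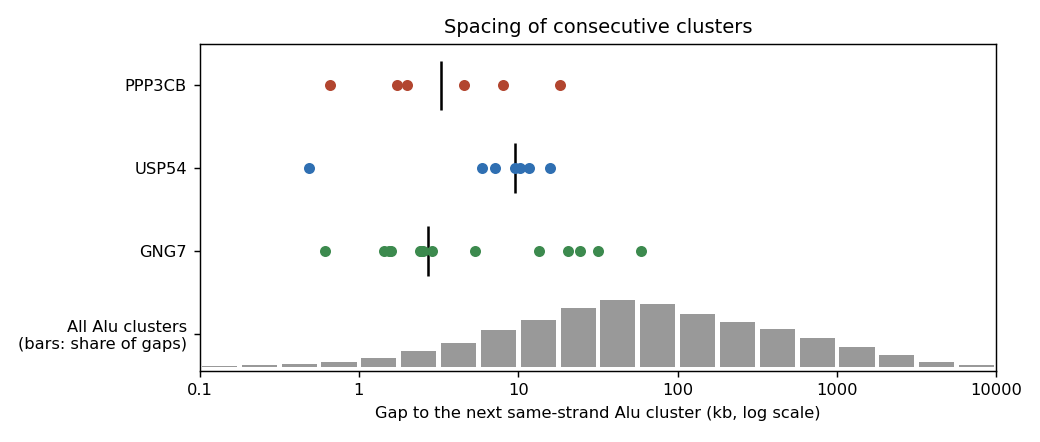
Points are the gaps between consecutive minus-strand clusters of each gene, in kb on a log scale, and vertical lines their medians of 3.28 kb (PPP3CB), 9.57 kb (USP54) and 2.70 kb (GNG7). Grey bars show how the 20152 gaps between consecutive same-strand Alu clusters of the list are distributed, scaled to the highest bar, with a median of 55.5 kb.

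Each gene held exactly 1 pair of clusters less than 1 kb apart. In PPP3CB the pair lay from 75214743 to 75214775 and from 75215434 to 75215654, 658 bases apart. In USP54 it lay from 75292061 to 75292259 and from 75292744 to 75292918, with 484 bases between them. In GNG7 it lay from 2562246 to 2562460 and from 2563074 to 2563268, separated by 613 bases. These 6 clusters are 20% of the members, while 4.86% of all Alu clusters had a same-strand neighbour of either class within 1 kb. Within 5000 bases the shares were 70% of members (21 of 30) and 20.5% of all Alu clusters, and 13 of these 21 members were in GNG7. Like the short gaps, these higher shares follow from the choice of dense genes and are no separate result. The orientation of the Alu copies under the clusters was not analysed here, because the hg19 sequence was not used.

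Cluster length was not part of the choice. The 30 members had a median of 189.5 bases, against 193 bases for all 20200 Alu clusters of the list, and 15 of the 30 were shorter than that value. Of the members, 19 lay between the quartiles of all Alu clusters, 152 and 221 bases. Lengths in PPP3CB were 205, 152, 177, 125, 107, 221 and 33 bases from the 5′ end, with a median of 152. In USP54 they were 157, 125, 215, 175, 199, 153, 197 and 217 bases, with a median of 186. In GNG7 they ran from 85 to 247 bases, with a median of 195. The ranges of the 3 genes overlapped, and no test was made because clusters of a gene are not replicates.

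Single clusters stood at the ends of the length range. The cluster of 33 bases in PPP3CB, a member of the close pair described above, was among the shortest: 0.139% of all Alu clusters were shorter, and 44 (0.218%) were under 40 bases. The shortest in GNG7, 85 bases from 2597761 to 2597845, was longer than 2.01% of all Alu clusters. The longest member, 247 bases from 2692448 to 2692694, was the cluster nearest the 5′ end of GNG7 and longer than 91.0% of them. Each member was therefore well under the longest Alu cluster of the list, which had 727 bases.

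**Figure D3:**
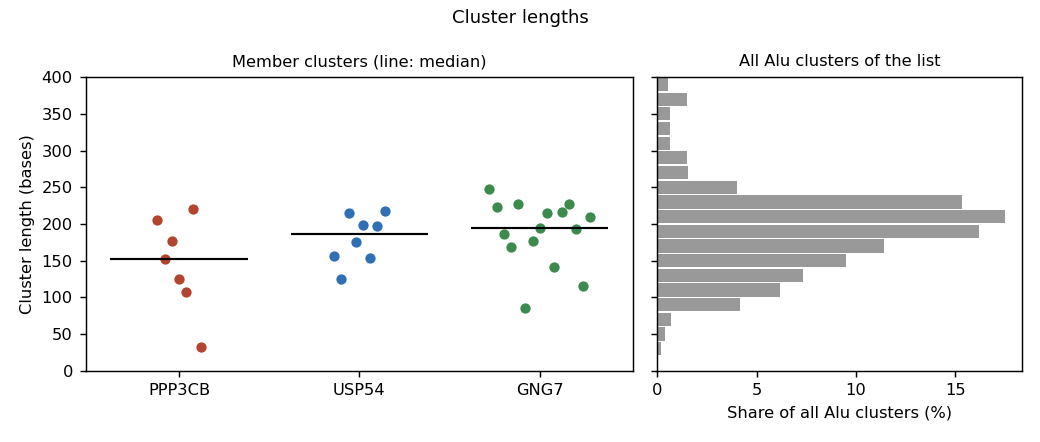
On the left, points are the lengths in bases of the 7, 8 and 15 member clusters and lines their medians (152, 186 and 195 bases). On the right, bars give the share of all 20200 Alu clusters in steps of length, up to the axis limit; most members sit in the range where these clusters are most common.

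Together the clusters covered 1020 bases of PPP3CB (1.71% of the interval), 1438 bases of USP54 (1.12%) and 2826 bases of GNG7 (1.47%). Gene models of GENCODE release 29, which are on GRCh38, were used for lengths and names only. They list PPP3CB as ENSG00000107758.15, USP54 as ENSG00000166348.18 and GNG7 as ENSG00000176533.12, all on the minus strand. The spans differ from the hg19 intervals by 103, 184 and 109 bases. GNG7 combines a long gene with a very short protein: its longest coding sequence has 204 bases, 0.107% of its span. Its clusters cover 2826 bases, so at least 2622 of them lie outside that coding sequence. The coding sequences of PPP3CB (1575 bases) and USP54 (5052 bases) are longer than the bases covered by their clusters, and lengths alone say nothing there. Exons of all transcripts make up 8.55% of the span of PPP3CB, 7.40% of USP54 and 2.38% of GNG7. Whether a given cluster is exonic, intronic or in an untranslated region was not analysed here, since no hg19 annotation was used.

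On the plus strand, the antisense direction, the list had 0 clusters in PPP3CB, 0 in USP54 and 0 in GNG7. GENCODE places PPP3CB-AS1, an antisense transcript, on the opposite strand across the ends of PPP3CB and USP54. It also places RPS26P41 opposite USP54, and ELOCP28, MIR7850 and AC092068.1 opposite GNG7. Thus none of the 5 annotated opposite-strand genes had a plus-strand cluster within the intervals. In windows of the length of GNG7 with at least 1 Alu cluster, 63.2% had 0 clusters on the other strand, and the share was 74.5% for windows as long as USP54 and 88.9% for those as long as PPP3CB. An empty opposite strand was therefore the more common case in the list. On the same strand, RNU6-883P is annotated inside USP54, and RN7SL121P (of the 7SL family from which Alu derives), AC092068.2, AC092068.3 and AC006538.3 inside GNG7, so that a minus-strand cluster there could belong to either gene.

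To set the counts beside the whole list, members included, each chromosome was divided on each strand into adjoining windows as long as the gene. Windows with 7 or more Alu clusters at the length of PPP3CB made up 0.0817% of those that held any (11 of 13462). Of these 11, 2 overlapped the members. At the length of USP54, windows with 8 or more made up 0.264% (28 of 10604), and 2 of the 28 overlapped the members. At the length of GNG7, windows with 15 or more made up 0.011% (1 of 9067). That 1 window lay over PPP3CB and part of USP54, and its count includes Alu clusters outside both genes. The fixed window edges split the clusters of GNG7. With windows moved in steps of 10 kb, 2 non-overlapping windows held 15 or more, 1 at GNG7 and 1 over PPP3CB with USP54. The latter also counted at least 1 Alu cluster outside both genes, so its number is not that of these genes alone. As the genes were picked for this density, these shares describe the choice and no more.

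**Figure D4:**
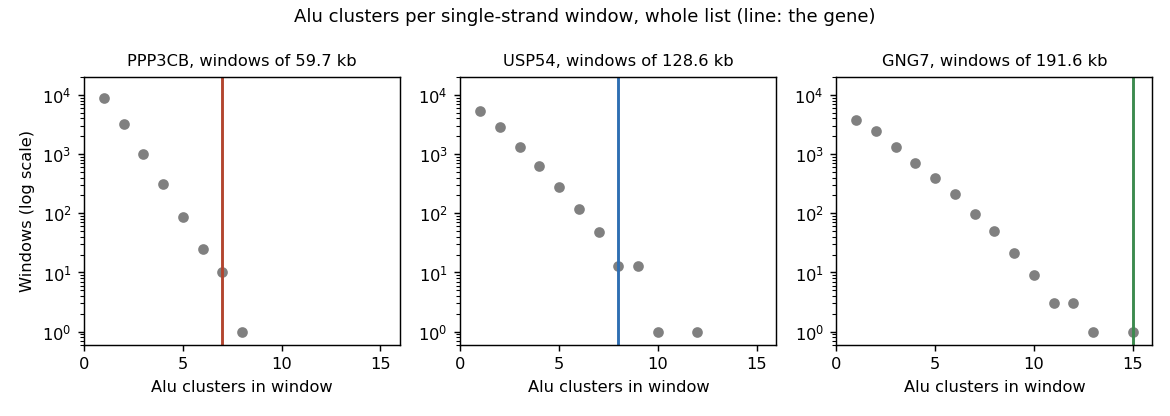
Grey points give the number of single-strand windows (log scale) with each number of Alu clusters, for windows as long as PPP3CB, USP54 and GNG7; windows with 0 are left out. Coloured lines mark the 7, 8 and 15 clusters of the genes, reached or passed by 11, 28 and 1 windows. The last of these lies over PPP3CB and part of USP54 and also counts Alu clusters outside both genes.

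Other crowded places were sought as windows of the same length, moved in steps of 10 kb, with the most Alu clusters on 1 strand outside the members. At the length of PPP3CB the most were on the plus strand of chromosome 7, with 9 Alu clusters between 73954647 and 74009196. Next were the plus strand of chromosome 16, with 8 between 2447323 and 2494461, and the minus strand of chromosome 19, with 8 between 3780091 and 3828292. These 3 windows held 0 non-Alu clusters and 0 on the other strand, as PPP3CB did. At the length of USP54 they were on chromosome 1 (12 on the minus strand between 153993113 and 154103748), chromosome 17 (11 on the minus strand between 704721 and 820628) and chromosome 19 (11 on the minus strand between 16554363 and 16669180). At the length of GNG7 the same regions of chromosomes 17 and 1 returned, with 14 and 13 Alu clusters, together with the minus strand of chromosome X, with 14 between 31317727 and 31501364. The chromosome 1 window also held 2 non-Alu clusters. Outside the members none of these windows reached the 15 of GNG7, 15 non-overlapping windows reached the 7 of PPP3CB and 81 the 8 of USP54. Genes at these positions were not assigned.

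PPP3CB and USP54 are neighbours on chromosome 10, with 1400 bases between their intervals. The gap from the last USP54 cluster to the first of PPP3CB was 6913 bases, shorter than the median gap within USP54. Reading in the direction of transcription, the 15 clusters of both genes therefore formed 1 row that crossed the gene boundary. They sat in a longer run of 24 consecutive minus-strand clusters, all Alu, from 75046002 to 75459917 (414 kb). Among 5331 such single-strand runs in the list, 35 (0.657%) had as many clusters, and the median run had 3. The run of GNG7 had 16 clusters, all Alu, from 2449186 to 2692694, and 173 runs (3.25%) had as many. Long runs follow in part from the choice of genes with many minus-strand clusters. Each share counts every run once, whatever its number of clusters, and describes the choice only.

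The bounds of the intervals cut through no cluster. Just outside PPP3CB, the next minus-strand cluster on the 3′ side was an Alu cluster of 220 bases, 10650 bases away, while the first inside lay 18643 bases from that bound. On its 5′ side the next was the USP54 cluster at 75258006, 2206 bases away, and the first inside lay 4708 bases from the bound. Just outside USP54 on the 5′ side, the next was an Alu cluster of 122 bases, 74.0 kb away, and the first inside lay 65.4 kb from the bound. GNG7 stood more alone, with its next minus-strand clusters 61.8 kb away on the 3′ side and 232.7 kb away on the 5′ side, against 8.8 and 10.1 kb from these bounds to the first clusters inside. The nearest plus-strand clusters lay 248.8 kb from PPP3CB, 134.0 kb from USP54 and 83.9 kb from GNG7. The nearest to USP54 was non-Alu, and the nearest to PPP3CB and to GNG7 were Alu.

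Within 500 kb on the 3′ side of PPP3CB there were 12 minus-strand and 3 plus-strand clusters, all Alu. Within 500 kb on the 5′ side of USP54 there were 8 minus-strand clusters, all Alu, and 8 on the plus strand, 4 Alu and 4 non-Alu. Minus-strand clusters thus outnumbered those of the plus strand past the 3′ end of PPP3CB, and both strands were equally represented past the 5′ end of USP54. Around GNG7, 8 minus-strand clusters, 4 of each class, and 3 plus-strand Alu clusters lay within 500 kb on the 3′ side. On its 5′ side, 2 minus-strand and 6 plus-strand clusters were listed, all Alu. Both flanks of GNG7 together held 6 minus-strand Alu clusters and 4 non-Alu clusters, beside the 15 Alu clusters within the gene. GNG7 was chosen for its number of such Alu clusters, so nothing is read from this contrast.

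**Figure D5:**
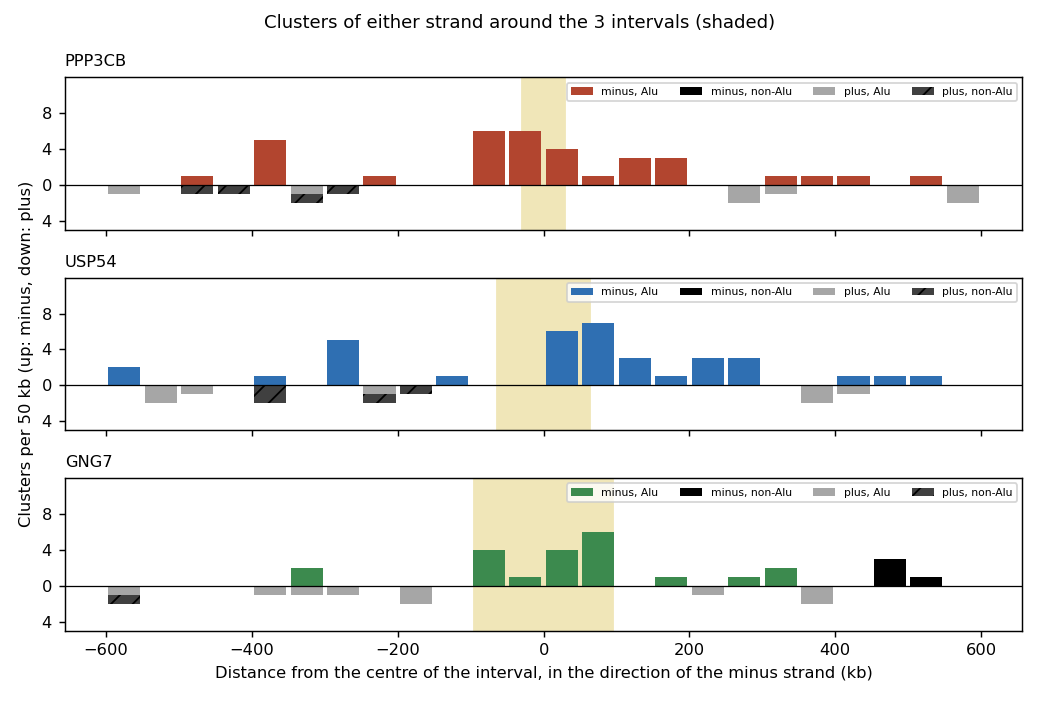
Bars count clusters per 50 kb around the centre of each interval (shaded), minus strand upward and plus strand downward, with Alu and non-Alu clusters in separate colours; the axis runs in the direction of transcription. Plus-strand bars begin outside the shaded intervals, and minus-strand clusters also lie to the right, past the 3′ end of PPP3CB, in lower numbers per 50 kb.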

How the data were processed

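The submitters' processing notes name cutadapt 1.1, Novoalign 2.08.22 and the build hg19. Libraries were made with 23 PCR cycles and a gel cut at 75 to 250 bp, per the labels' protocols. The cluster caller, its thresholds, the treatment of reads that match several Alu copies, the pooling of AB1 and AB2 and the assignment of the Alu class are not stated in the labels or the list; each can change which repeat copies are listed and how long and how far apart clusters are. The deposited list gives positions in bases, a strand and a class, with no read depth. The members and lists were chosen with earlier results of these data known.

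Positions are printed counting from 1, reading starts as counted from 0. Midpoints decided membership. Counts have exact Poisson and shares Wilson 95% intervals, covering counting error only. Analyses ran in Python 3.11.15 with scipy 1.17.1 for intervals and pandas 2.3.3 for tables, and the code was tested on simulated data. Gaps run from edge to edge, and a neighbour had its nearest edge within 1000 bases on the same strand. Named genes are those of the rule, and other crowded regions the 3 windows with the most Alu clusters for each gene. Lists of calcineurin, G protein and deubiquitinase genes were not analysed here, since GENCODE release 29 is on GRCh38; no sequence is printed for the same reason.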

Additional observations from a re-analysis of the deposited data

How the results depend on the processing

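Of 66 alternative values for the 3 genes, 55 stayed within set limits, which were 1.5 times for counts and the interval of the reported share or median. Many of the 55 could not have moved, for the reasons given below, so their number is no measure of robustness. The length filter leaves fewer clusters and a coarser step fewer windows, by construction. Clusters at or above the list's median length numbered 2 in PPP3CB, 4 in USP54 and 9 in GNG7. The single gap then left in PPP3CB was 35233 bases. In GNG7 the median gap was then 10227 bases, inside the wide interval of its reported median of 2703 bases. With neighbours within 200 bases, 0 clusters of each gene had one; within 5000 bases, 6 of PPP3CB and 13 of GNG7 did. With windows moved by 25 kb instead of 10 kb, 9 instead of 17 non-overlapping windows, members included, reached the count of PPP3CB, and 1 instead of 2 that of GNG7. Merging within 50 bases and any overlap with the interval could not change the clusters. The smallest gap was 484 bases, and no cluster crossed a bound. The Alu share was 100% and the opposite strand 0 in each setting run. Of these settings, only widening the interval by 5000 bases could have given other values. It took PPP3CB from 7 to 8 clusters, by adding a USP54 cluster, and left USP54 at 8 and GNG7 at 15. No paired analysis was possible because the single list does not tell AB1 from AB2, which also prevented leaving either library out. The list has no score, so a stricter threshold could not be set, and places without a cluster cannot be judged.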
